A study of Homo sapiens with 12 samples.

Results

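The erythroid master transcription factors are 10 genes, GATA1, GATA2, TAL1, KLF1, LMO2, GFI1B, LYL1, NFE2, ZFPM1 and RUNX1, out of 20046 protein-coding genes in the annotation. They were chosen by name, and each was described by all listed H2A.Z and acetylated H2A.Z (H2A.Zac) regions over its gene body plus 50 kb to each side. This gave 439 of 158028 regions, 157 of 63442 for H2A.Z and 282 of 94586 for H2A.Zac, and 0 regions belonged to more than 1 gene. The regions come from ChIP-seq in K562, a human chronic myeloid leukemia line with erythroid features. All cells carried endogenous EP400 with a degradation tag and received dTAGV-1 at 500 nM for 24 h, which removes the tagged protein. The cells of the WT line expressed exogenous WT EP400, and those of the ΔTRRAP line expressed EP400 without the domains that bind TRRAP, with 1 clone for each line. The 12 libraries were 2 replicates each of input, H2A.Z and H2A.Zac for each line. The labels call the cells lymphoblasts, and a region of either mark was listed within 1 kb of the transcription start site (TSS) of 7 of 9 erythroid markers and of 6 of 9 lymphoid markers, against 66.7% of all genes. The presence of a region therefore did not separate these marker sets.

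H2A.Z is a histone variant that EP400, the scaffold and motor of the TIP60 complex, helps to place in nucleosomes at promoters and enhancers, and TIP60 acetylates it. TRRAP is the large subunit through which activators recruit the complex. The 10 factors form the network that sets up and maintains the red cell program: GATA1 and GATA2 bind GATA sites, TAL1 or its relative LYL1 joins them through the bridging protein LMO2, and KLF1 and NFE2 act on globin and other late genes. GFI1B is a repressor, ZFPM1 is the cofactor of GATA1 also called FOG1, and RUNX1 acts in stem cells and in blood platelet precursors. Many of these genes are bound by the factors they encode.

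Each list holds regions that are higher in WT (lost in ΔTRRAP), higher in ΔTRRAP (gained) or unchanged. The only value of a region is the authors' log10 likelihood ratio, which is at least 3.1 in the lost and gained lists and at most 2.9 in the unchanged lists. It reflects both read depth and the difference between the lines, and is not a fold change. The replicates were merged before the comparison, so there is no value for each replicate, no depth, and no test between the lines. An unlisted stretch is not a stretch without signal. A change in the share of cells that carry a mark and a change in each cell cannot be told apart. The Wilson 95% confidence intervals below cover counting error only and treat neighboring regions as independent, which they may not be. Positions in kb are distances from the TSS of the canonical transcript to the nearest edge of a region, with negative values upstream.

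A TAL1/GATA composite motif, CTG, then 7 or 8 bases, then AGATAA, was searched on both strands, since it is the arrangement of sites that TAL1 and GATA1 occupy together in erythroid cells. It was found 81 times in the 10 loci. The 6 matches below are shown because they lie in or beside regions of every class, gained at GATA2, ZFPM1 and NFE2, unchanged at LMO2 and KLF1, and lost at RUNX1. The capitals mark the match, and the sequence is read 5′ to 3′ on the named strand of hg38.
GATA2, chr3:128483251-128483387, minus strand: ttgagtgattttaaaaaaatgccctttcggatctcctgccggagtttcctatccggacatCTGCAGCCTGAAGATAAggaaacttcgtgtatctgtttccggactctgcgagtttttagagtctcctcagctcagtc
ZFPM1, chr16:88455932-88456068, minus strand: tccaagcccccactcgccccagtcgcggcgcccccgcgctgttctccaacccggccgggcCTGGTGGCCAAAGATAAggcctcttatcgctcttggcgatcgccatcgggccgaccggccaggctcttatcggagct
NFE2, chr12:54295830-54295966, plus strand: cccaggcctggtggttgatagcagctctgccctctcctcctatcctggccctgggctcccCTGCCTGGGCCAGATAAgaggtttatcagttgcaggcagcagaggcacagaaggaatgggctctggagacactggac
LMO2, chr11:33894514-33894649, minus strand: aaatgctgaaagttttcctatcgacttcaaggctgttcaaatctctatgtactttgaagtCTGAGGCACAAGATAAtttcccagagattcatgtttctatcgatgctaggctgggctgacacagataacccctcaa
KLF1, chr19:12886290-12886426, plus strand: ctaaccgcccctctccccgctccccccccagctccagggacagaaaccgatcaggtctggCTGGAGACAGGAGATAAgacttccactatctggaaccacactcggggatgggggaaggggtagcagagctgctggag
RUNX1, chr21:35360404-35360540, minus strand: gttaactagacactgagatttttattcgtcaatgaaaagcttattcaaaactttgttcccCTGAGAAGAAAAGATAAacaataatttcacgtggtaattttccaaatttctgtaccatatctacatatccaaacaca

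The GATA2 match lies in intron 4 at 9.89 kb, in the gap between the gained H2A.Zac regions of that intron and 147 bp from the nearer. The ZFPM1 match lies in intron 1 at 2.71 kb, inside a gained H2A.Zac region. The NFE2 match lies in intron 1 at 5.12 kb, 208 bp from a gained H2A.Zac region. The KLF1 match lies in intron 1 at 0.851 kb, inside an unchanged H2A.Zac region, and the LMO2 match lies at −2.5 kb, also inside an unchanged one. The RUNX1 match at −311 kb lies inside a lost H2A.Z region and a lost H2A.Zac region. Of the 81 matches, 17 (21%) were within 500 bp of an H2A.Zac region, against 4051 of 77074 (5.26%) over the genome, and 7 (8.64%) against 3.2% for H2A.Z. The loci also hold many listed regions for their length, so this share describes where the matches lie and nothing more. A match is only a run of letters, and the GATA hexamers (the form AGATAA, the form AGATAG, the form TGATAA and the form TGATAG) were as frequent in these H2A.Zac regions as elsewhere. They occurred in the central 300 bp of 34.4% of the H2A.Zac regions of the loci and of 33.8% of all H2A.Zac regions. For H2A.Z these shares were 38.2% and 30.7%. These hexamers overlap the composite motif. The composite motif itself was in the central 300 bp of 3 H2A.Zac regions of the loci (1.06%), against 1% of all H2A.Zac regions. For H2A.Z it was in 2 (1.27%), against 0.848% of all. The CACC box that KLF1 binds (CCNCACCC) was in 16.7% against 14.4% of the H2A.Zac windows, the RUNX motif (TGTGGT) in 18.1% against 16.9%, and the motif of NFE2 and AP-1 (the form TGAGTCA and the form TGACTCA) in 6.03% against 6.58%. In the H2A.Z windows the CACC box was in 12.7% against 14.7%. There the RUNX motif was in 21% against 15.7%, and the motif of NFE2 and AP-1 in 8.28% against 5.73%.

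Over the 10 loci, 81 H2A.Zac regions were lost, 62 were gained and 139 were unchanged. The lost share was 28.7% (23.8 to 34.3%), against 25.9% of all H2A.Zac regions, and the gained share was 22% (17.5 to 27.2%), against 26.3%. Both genome-wide shares lie inside the intervals. The classes share bases. Of the 62 gained H2A.Zac regions 39 (62.9%) shared at least 1 base with an unchanged H2A.Zac region and 5 lay wholly inside one, and of the 81 lost ones 22 (27.2%) did and 1, against 55.7% of the gained and 37.5% of the lost H2A.Zac regions of the genome. No lost and gained regions of a mark overlapped. For H2A.Z, 42 regions were lost, 13 were gained and 102 were unchanged. Gains made up 23.6% (14.4 to 36.3%) of the H2A.Z regions that changed, against 41.6% over the genome. At a ratio of 5 or more they were 8 of 42 (19%, 9.98 to 33.3%), against 38.5%, and with a ratio of at least 10 they were 5 of 9 (55.6%, 26.7 to 81.1%), against 39.1% of such regions over the genome. These intervals overlap, and without RUNX1 the last count was 1 of 3. The genome-wide shares pool all regions. Taken by gene, over the 3091 genes with at least 5 changed H2A.Z regions in the same kind of interval, the median gained share was 20%. The quartiles were 0 and 50%, so the 23.6% of the loci was not low on that measure. For H2A.Zac the gained shares were 43.4% (35.5 to 51.5%) at the authors' cutoff, 41.6% (32.9 to 50.8%) at 5 and 24.4% (14.2 to 38.7%, 11 of 45) at 10, against 50.4%, 48.3% and 40.7% over the genome, and without RUNX1 the last was 47.6% (28.3 to 67.6%, 10 of 21). At the authors' cutoff the lost H2A.Z share of 26.8% (20.4 to 34.2%) stood above the 19.8% of all H2A.Z regions, and the gained share of 8.28% (4.9 to 13.7%) stood below the 14.1% of all. RUNX1 decides these totals, because its annotated gene body is 1217 kb long, and with its flanks it holds 175 of the 439 regions. Without RUNX1, H2A.Z had 12 lost, 9 gained and 55 unchanged regions, or 15.8% lost (9.27 to 25.6%) and 11.8% gained (6.36 to 21%), and both intervals contain the genome-wide share. For H2A.Zac, the 9 other loci had 38 lost, 52 gained and 98 unchanged regions, or 20.2% lost (15.1 to 26.5%) and 27.7% gained (21.8 to 34.5%). These intervals also contain the genome-wide shares. At this number of regions, the overall lost and gained shares of the 9 loci together could thus not be told apart from those of the genome.

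**Figure D1:**
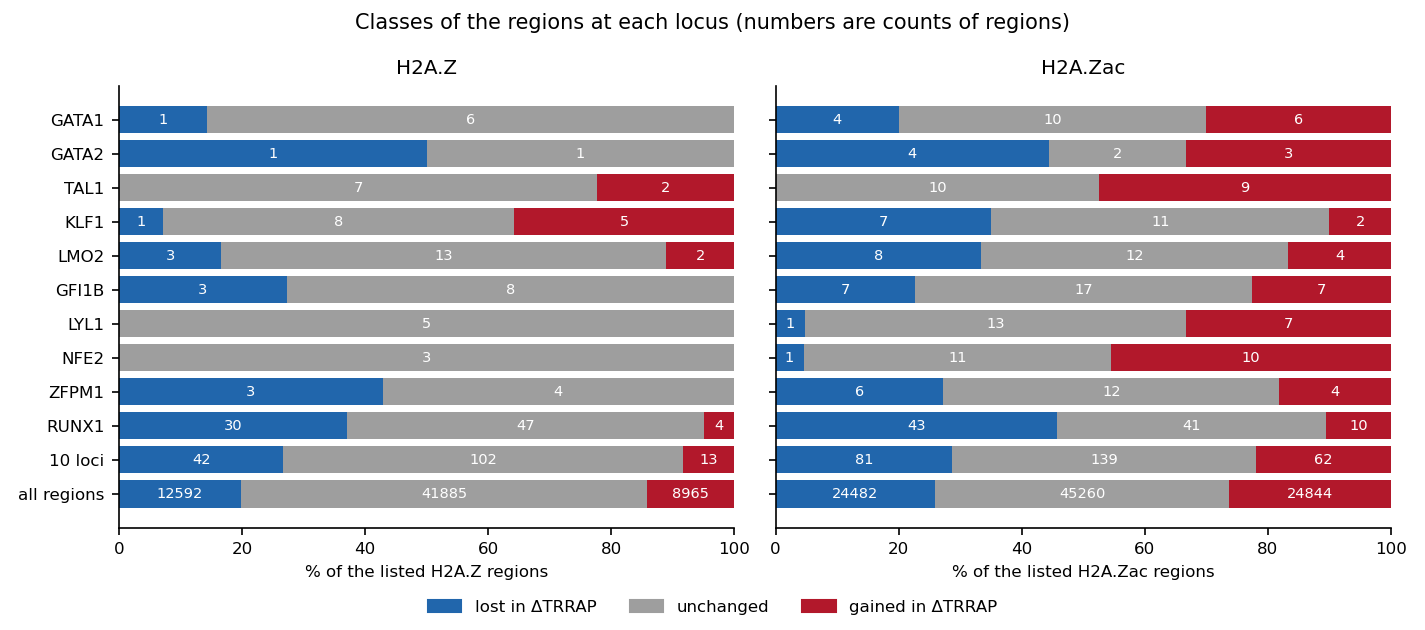
Share of the listed H2A.Z (left) and H2A.Zac (right) regions of each locus that were lost in ΔTRRAP (blue), unchanged (gray) or gained (red), with all 10 loci and all regions of the mark in the last bars; the numbers are counts of regions. All 9 changed H2A.Zac regions of TAL1 were gained and 10 of 11 at NFE2, while 43 of 53 at RUNX1 were lost.

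The gained share of the changed H2A.Zac regions was higher near the TSSs of the factors than farther out, but gains near the TSSs often shared bases with unchanged regions. Within 10 kb of a factor's TSS, 7 H2A.Zac regions were lost, 23 were gained and 32 were unchanged, so that 76.7% (59.1 to 88.2%) of the changed regions were gained. Farther out 74 were lost, 39 were gained and 107 were unchanged, a gained share of 34.5% (26.4 to 43.7%). Without RUNX1 these shares were 82.1% (64.4 to 92.1%) and 46.8% (34.9 to 59%), the latter close to even. Without the changed regions that shared a base with an unchanged one, an alternative chosen after seeing the data, 6 H2A.Zac regions were lost and 8 gained within 10 kb, or 57.1% gained (32.6 to 78.6%), and 53 were lost and 15 gained farther out, or 22.1% (13.8 to 33.3%). Without RUNX1 these were 66.7% (39.1 to 86.2%) and 33.3% (19.8 to 50.4%). Over the genome this step removes a larger share of the H2A.Zac gains than of the losses, and it leaves 41.8% gained within 10 kb of a protein-coding TSS and 41.7% farther out. The former lies inside the intervals near the TSSs of the factors, with and without RUNX1. The latter lies above the interval farther out with RUNX1 and inside the one without it. Over the 94219 of 94586 H2A.Zac regions that lie on a sequence with a protein-coding TSS, divided by distance from the nearest one, 56.2% and 46.1% of the changed regions were gained. These sets are not built alike, because many of the more distant regions of the loci lie at TSSs of other genes. H2A.Z had 5 lost, 5 gained and 12 unchanged regions within 10 kb, and 37, 8 and 90 farther out. The gained shares of the changed H2A.Z regions were thus 50% (23.7 to 76.3%) and 17.8% (9.29 to 31.3%), against 49.3% and 36.6% over the 63142 of 63442 H2A.Z regions with such a distance. Without RUNX1, with 1 lost and 5 gained near the TSSs and 11 lost and 4 gained farther out, they were 83.3% (43.6 to 97%) and 26.7% (10.9 to 52%), from few regions. Gained H2A.Zac regions within 10 kb of the TSS were listed at 8 loci, GATA1, GATA2, TAL1, LMO2, GFI1B, LYL1, NFE2 and ZFPM1, against 47.1% of all protein-coding genes. At GATA1, LMO2 and GFI1B all of these gains shared bases with unchanged regions.

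**Figure D2:**
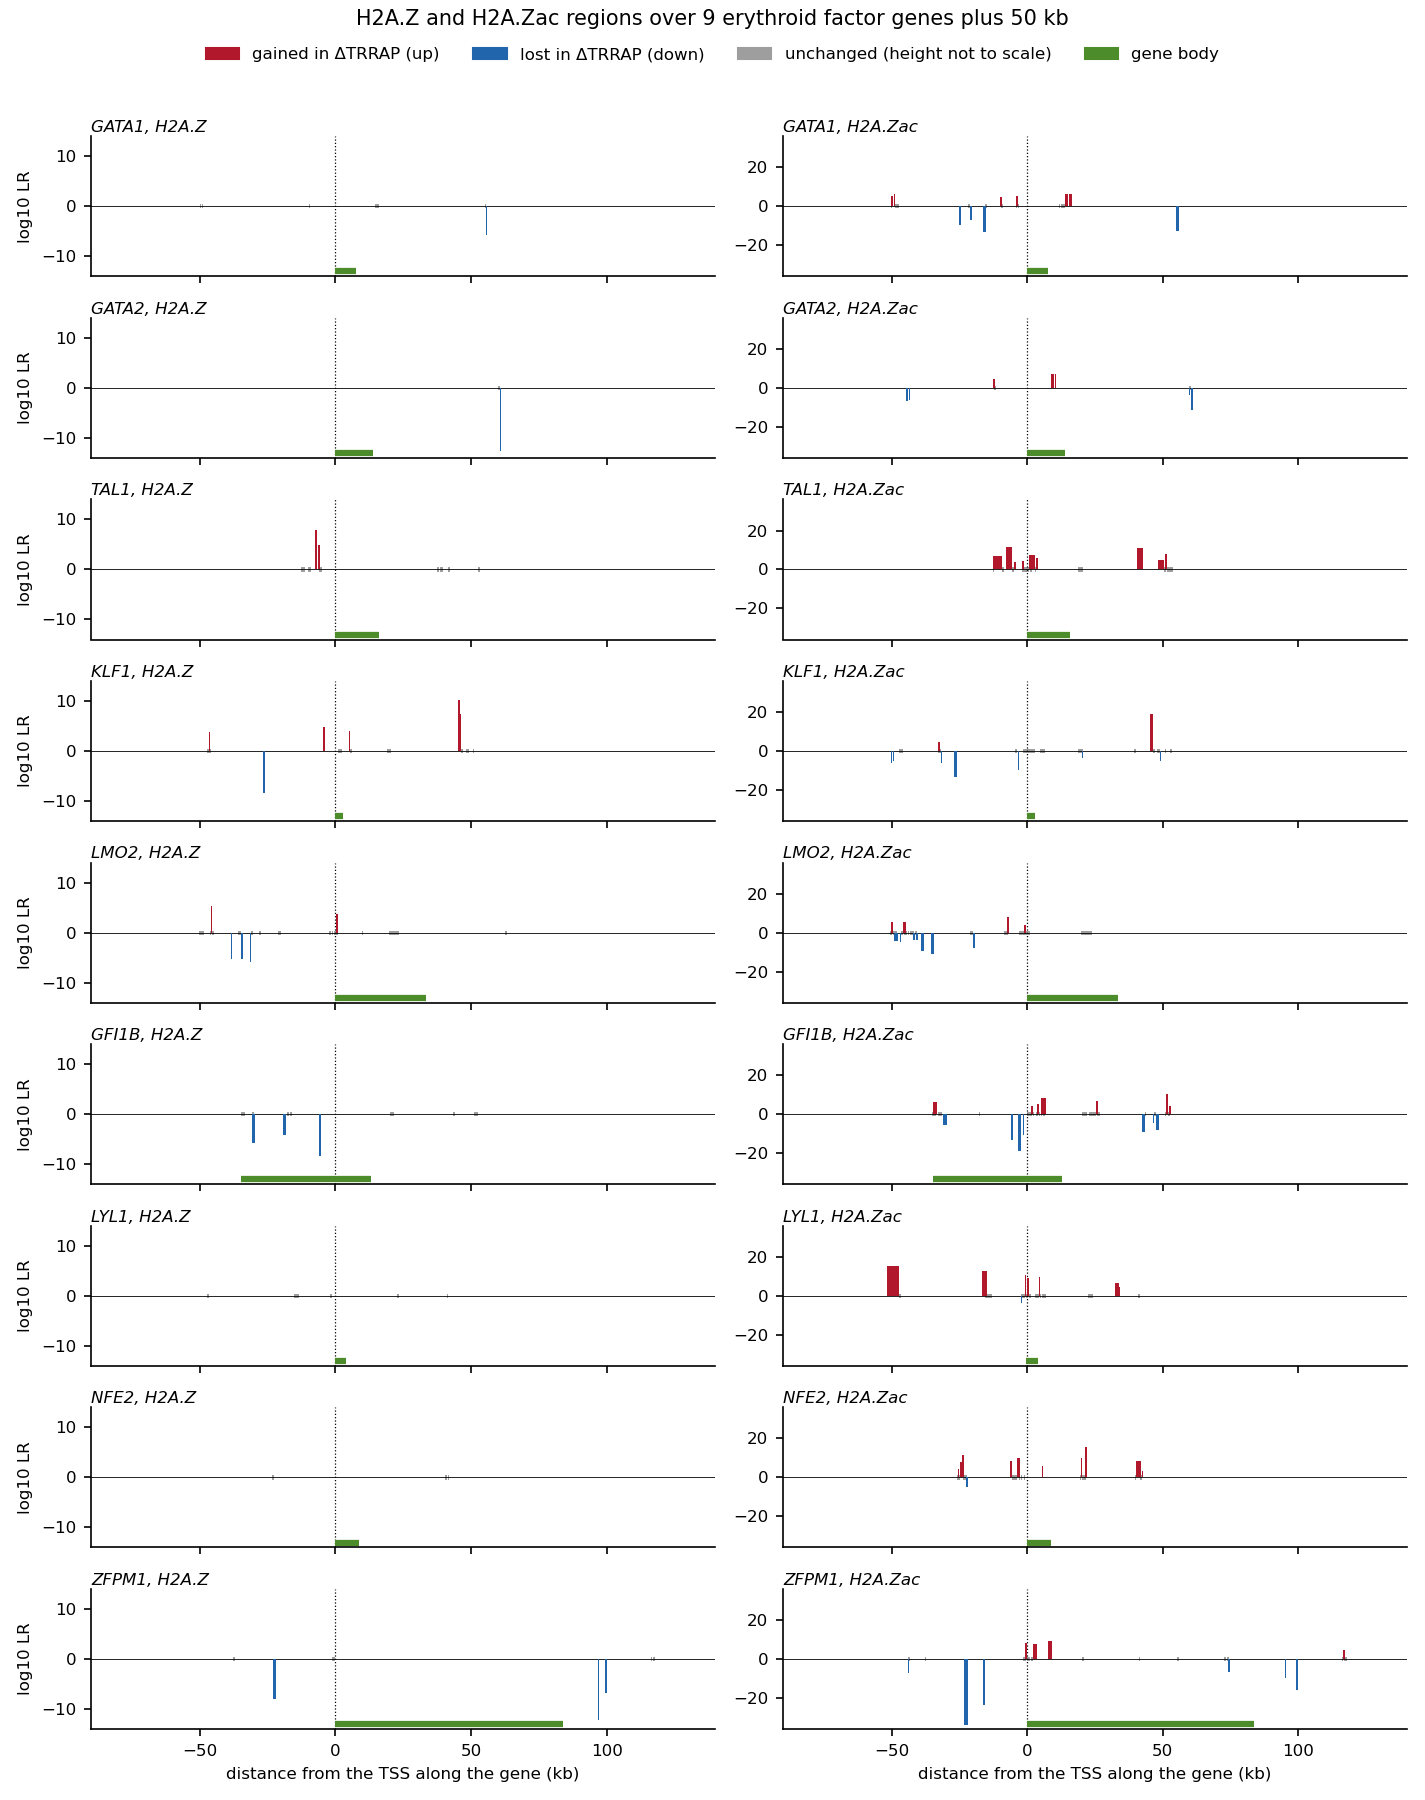
Regions over the 9 loci other than RUNX1, with H2A.Z in the left column and H2A.Zac in the right. The horizontal axis is the distance from the canonical TSS along the gene in kb, and bars show the authors' log10 likelihood ratio, upward in red for gained and downward in blue for lost regions; gray marks are unchanged regions, the green line is the gene body, and narrow regions are drawn at a minimum width. At TAL1 the bars of H2A.Zac all point upward, at ZFPM1 the losses at −21.8 and −15.7 kb lie upstream of a promoter with gains, and within 10 kb of the GFI1B TSS losses lie upstream and gains downstream of an unchanged region.

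GATA1 encodes the zinc finger factor that drives red cell and platelet precursor maturation. It lies on chromosome X from 48786540 to 48794311 on the plus strand. The lists hold 0 regions of either mark in its gene body, and the nearest H2A.Zac region ends 2.94 kb away. In the flanks, 4 H2A.Zac regions were lost, 6 were gained and 10 were unchanged. The gains lay in 3 places. Upstream of the gene were regions at −3.35 kb (log10 likelihood ratio 5.34) and −9.4 kb (4.65), a pair stood at the TSS of HDAC6, a deacetylase gene, at 13.9 kb (6.03) and 15.4 kb (6.26), and a pair lay in the far upstream flank at −48.6 kb (6.36) and −49.5 kb (5.07). The losses had higher ratios, at −15.3 kb (13), −20.5 kb (7.24), the TSS of GLOD5 at −24.4 kb (9.85) and 54.7 kb (12.7). Of 7 H2A.Z regions, 1 was lost, at 55.4 kb (5.84) under the lost H2A.Zac region, and 6 were unchanged. The changes in acetylation upstream of GATA1 thus pointed in both directions, and the H2A.Z regions upstream were unchanged.

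GATA2 encodes the relative of GATA1 that acts in stem and progenitor cells. It lies on chromosome 3 from 128479427 to 128493201 on the minus strand and is the sparsest locus, with 2 H2A.Z and 9 H2A.Zac regions. No region was listed within 1 kb of its canonical TSS. The only regions in the gene body were gained for H2A.Zac, from 128483474 to 128484558 over intron 3, exon 4 and intron 4 (7.29), and from 128482584 to 128482928 in intron 4 (7.01). The composite motif of the GATA2 sequence above lies between them. The remaining gain lay at −12 kb (4.73). All 4 losses were far from the gene, a pair at −43.2 and −43.8 kb (6.05 and 6.64) and a pair at 59.7 and 60.4 kb (3.85 and 11.6), the latter with a lost H2A.Z region at 60.7 kb (12.6). The nearest H2A.Z region lay 59.9 kb from the TSS.

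ZFPM1 encodes FOG1, which binds GATA1 and brings in repressors and activators. It lies on chromosome 16 from 88453280 to 88537031 on the plus strand, with 6 lost, 4 gained and 12 unchanged H2A.Zac regions. Acetylation was gained just upstream of the TSS at −0.118 kb (8.29) and in intron 1 at 2.1 kb (7.65) and 7.62 kb (9.08), of which the first intronic region holds the composite motif shown above. Unchanged H2A.Zac regions lay beside the gained one at the TSS, and the H2A.Z region there was unchanged. The locus also has the highest ratio of the 10, a lost H2A.Zac region of 1353 bp at −21.8 kb (33.8) over a lost H2A.Z region (8.08), followed by a lost H2A.Zac region at −15.7 kb (23.5). Downstream of the gene, H2A.Z was lost at 96.8 kb (12.2) and at 99.4 kb (6.84), where H2A.Zac was lost too (16.1). The locus had 3 changed H2A.Z regions, all lost, a number too small to set against other loci. Over the 3091 genes with at least 5 changed H2A.Z regions in the same kind of interval, the median gained share was 20% and 28% had no gain.

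TAL1, a helix-loop-helix factor needed for all blood formation, lies on chromosome 1 from 47216290 to 47232225 on the minus strand. It was the only locus of the 10 in which changed regions of both marks were gained and none lost, with 9 gained and 10 unchanged H2A.Zac regions and 2 gained and 7 unchanged H2A.Z regions. In the fixed 5-Mb window that holds it, without the locus itself, 50.6% of the changed H2A.Zac regions and 30.6% of the changed H2A.Z regions were gained. The TSS itself lay in an unchanged H2A.Zac region of 2837 bp, which shared 15 bp with a gained region at 0.798 kb in intron 1 (7.28). A gained region of 416 bp at −1.37 kb (4.58) lay wholly inside the unchanged one, so the same bases are listed in both classes. Of the 9 gained H2A.Zac regions 3 shared no base with an unchanged region. The highest ratio was at −5.51 kb, where a gained H2A.Zac region of 2239 bp (11.7) covered both gained H2A.Z regions (4.8 and 7.89). Farther downstream, H2A.Zac was gained at the TSS of the neighbor PDZK1IP1 at 40.6 kb (11.1) and in a pair of regions at 48.3 and 50.9 kb (5.06 and 8.06). Over all 9958 genes with at least 5 changed H2A.Zac regions in the same kind of interval, the median gained share was 50%, with quartiles of 30.8 and 70%, and 5.92% of these genes had gains only.

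LYL1, the close relative of TAL1, lies on chromosome 19 from 13099033 to 13103161 on the minus strand. Of its 8 changed H2A.Zac regions 7 were gained, and the 5 H2A.Z regions were unchanged. A gained region of 760 bp covered the TSS (9.1) and another began at −0.299 kb (10.5), with unchanged regions between and beside them, of which one shared 202 bp with the gained region at the TSS. The single loss, at −1.9 kb, had a ratio of 3.46, close to the cutoff. The remaining gains were at 4.37 kb (9.78), at 32.2 and 33.9 kb (6.44 and 4.5), at the TSS of NACC1 at −14.9 kb (12.8) and, in a region of 4285 bp, at the TSSs of IER2 and STX10 at −47.2 kb (15.2). The highest ratios of the locus thus belonged to promoters of neighbors. In the 5-Mb window of LYL1, which also holds KLF1, 47.1% of the changed H2A.Zac regions were gained.

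LMO2 encodes the LIM-only protein that bridges TAL1 and GATA factors. It lies on chromosome 11 from 33858576 to 33892076 on the minus strand. Its promoter is among the wide unchanged regions of the 10 loci, with an H2A.Zac region of 4167 bp over the TSS that also holds the LMO2 sequence shown above, and a further unchanged H2A.Zac region of 4179 bp at 19.7 kb over an alternative TSS. Small gained regions lay at the promoter, for H2A.Zac at −0.663 kb (4.12) and for H2A.Z at 0.495 kb (3.82), each wholly inside an unchanged region of the same mark. The H2A.Zac region at −6.71 kb was gained with a higher ratio (7.87). Upstream of it 8 H2A.Zac regions were lost, from −19.4 kb (7.8) to −48.5 kb (4.41), the highest at −34.2 kb (11.1) and −38 kb (9.49). The H2A.Z regions at −34.1 and −38.1 kb were lost with them (5.26 and 5.18), and another was lost at −31.1 kb (5.82). A gained H2A.Zac region at −44.8 kb (5.36), over a gained H2A.Z region (5.24), lay among these losses, and another lay beyond them at −49.6 kb (5.38). In the 5-Mb window 62.4% of the changed H2A.Zac regions were gained, against 4 of 12 in the locus.

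KLF1, a zinc finger activator of adult globin genes that binds CACC boxes, lies on chromosome 19 from 12884422 to 12887201 on the minus strand. A single unchanged H2A.Zac region of 4509 bp covered the whole gene with its 3 exons, and the H2A.Z region over exons 2 and 3 was unchanged as well. The changes were in the flanks, which hold the TSSs of 6 other protein-coding genes, and the counts were small. H2A.Z had 1 lost and 5 gained regions, of which 2 gains shared bases with unchanged regions, and H2A.Zac had 7 lost and 2 gained. In the 5-Mb window 38.6% of the changed H2A.Z and 47.1% of the changed H2A.Zac regions were gained. At 45.2 kb both marks were gained, with a ratio of 19.1 for H2A.Zac and of 10.1 for H2A.Z. Near −25.8 kb both were lost, at 13.4 and 8.46. At the TSS of the neighbor GCDH the marks pointed in opposite directions in neighboring stretches, with a lost H2A.Zac region at −2.91 kb (9.82) and a gained H2A.Z region at −4.01 kb (4.74). Low ratios were frequent, with a median of 4.74 for the gained H2A.Z and 6.16 for the lost H2A.Zac regions.

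NFE2 encodes the blood-specific subunit of the NF-E2 dimer, which binds the globin control regions with a small MAF protein. It lies on chromosome 12 from 54292111 to 54301015 on the minus strand. Of its 11 changed H2A.Zac regions 10 were gained, and its 3 H2A.Z regions were unchanged and lay at least 22.7 kb from the TSS. Within 1 kb of the canonical TSS the only H2A.Zac region was unchanged, at −0.62 kb. The nearest gains were at −2.54 kb (9.72), at −5.64 kb (8.38) and at 5.33 kb (5.78), the last over exon 2 and beside alternative TSSs and the NFE2 sequence shown above. The highest ratios were at other promoters, CBX5 at 21.4 kb (15.6), CBX5 and HNRNPA1 at 19.7 kb (10.2), and COPZ1 at −23.4 kb (11.7). The loss, at −21.9 kb, had a ratio of 4.79. In the 5-Mb window 48.9% of the changed H2A.Zac regions were gained.

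GFI1B, a repressor that recruits the demethylase KDM1A with RCOR1, lies on chromosome 9 from 132944000 to 132991687 on the plus strand, with its canonical TSS at 132978694. It had 7 lost, 7 gained and 17 unchanged H2A.Zac regions, and 3 lost and 8 unchanged H2A.Z regions. Within 10 kb of the canonical TSS the directions differed by side. Upstream, H2A.Zac was lost at −1.16 kb (10.6), −2.23 kb (18.9) and −5.38 kb (13.4), the last over a lost H2A.Z region (8.35). Downstream, in intron 1, it was gained at 1.3 kb (4.08), 3.7 kb (5.06) and 5.28 kb (8.18), without an H2A.Z region. Between them lay an unchanged H2A.Zac region at 0.094 kb, and all 3 gains shared bases with unchanged regions, the first 470 bp with this one, the second 58 bp with another, and the third 125 bp with one and the whole of another of 321 bp. Farther out both directions occurred on each side. Both marks were lost at −29.6 kb (5.66 for H2A.Zac and 5.79 for H2A.Z), and H2A.Zac was gained at 25.4 kb (6.8). The alternative TSS of GFI1B at −33.1 kb, beside the promoter of TSC1, had a gained H2A.Zac region (6.08). Downstream of the gene, losses at 42.5 kb (9) and 47.4 kb (7.88) were followed by a gain at the TSS of GTF3C5 at 51.1 kb (10.5). In the 5-Mb window 50.9% of the changed H2A.Zac regions were gained, against 50% in the locus. For GATA1, GATA2 and ZFPM1 the shares in the windows were 51.8, 50 and 56.1%, against 60, 42.9 and 40% in the loci.

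RUNX1 encodes the DNA-binding partner of CBFB and is transcribed from a distal and a proximal promoter. In the annotation it spans chromosome 21 from 34787801 to 36004667 on the minus strand, because of a transcript that begins at −955 kb, far upstream of the canonical, distal TSS at 35049302. For H2A.Zac 43 regions were lost, 10 were gained and 41 were unchanged. For H2A.Z these numbers were 30, 4 and 47. Gains thus made up 18.9% (10.6 to 31.4%) and 11.8% (4.67 to 26.6%) of the changed regions, against 52% and 27.6% in the 5-Mb window with the locus left out, and against 50.4% and 41.6% over the genome. Taken by gene, over genes with at least 5 changed regions of the mark in the same kind of interval, the median gained share was 50% for H2A.Zac and 20% for H2A.Z. The H2A.Zac share of RUNX1 lay below the lower quartile of 30.8%. Its H2A.Z share lay between the quartiles of 0 and 50%. With a ratio of at least 5, 23 H2A.Z regions were lost and 4 gained, or 14.8% gained (5.92 to 32.5%). All 4 gained ones also had ratios of at least 10, as did 2 of the 30 lost ones (10.8 and 12.2), so that 4 of 6 (66.7%, 30 to 90.3%) were gained there, from few regions. For H2A.Zac with a ratio of at least 10, 23 were lost and 1 was gained. The windows are fixed bins, and the one that holds the RUNX1 TSS, from 35 to 40 Mb, lies almost wholly on its upstream side. The H2A.Z share depends on how far the gene is taken to reach. Over the canonical transcript plus 50 kb, from which the far upstream part is left out, 13 H2A.Z regions were lost and 4 gained, or 23.5% (9.56 to 47.3%), which cannot be told apart from the window's share. For H2A.Zac 24 were lost and 3 gained, or 11.1% (3.85 to 28.1%). How far the surroundings take part in the result was not tested.

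H2A.Z was lost at the distal promoter of RUNX1 and gained at the proximal one, while H2A.Zac was lost at the distal promoter and changed in both directions at the proximal one. Over the distal promoter, an H2A.Zac region of 5331 bp from 35046792 to 35052122 was lost (20.6), together with the H2A.Z region from 35046935 to 35049093 (10.8), and the adjacent regions at −3.27 kb (H2A.Zac, 23.5) and −3.42 kb (H2A.Z, 8.52) were lost too. An unchanged H2A.Z region of 1544 bp at −1.07 kb lay under the lost H2A.Zac region of 5331 bp. It wholly held a lost H2A.Z region of 268 bp (3.8), so the same bases are listed in both classes. At the proximal promoter, whose TSS lies 161 kb downstream at 34888690, 3 H2A.Z regions were gained with ratios of 11.1, 12 and 11.2, and an H2A.Zac region from 34887587 to 34889455 was gained (9.38). A lost H2A.Zac region of 456 bp (15.3) lay beside it, from 34890224 to 34890679. The proximal promoter also had 1 unchanged region of each mark. The fourth gained H2A.Z region was in intron 2 at 22.1 kb (10.6), under a gained H2A.Zac region (12.5). Upstream of the distal promoter the losses ran over a long stretch. From −6 to −330 kb, 21 H2A.Z regions were lost, 0 were gained and 13 were unchanged, and H2A.Zac had 16 lost, 0 gained and 10 unchanged regions, with the highest ratio at −177 kb (31). From −330 to −900 kb, 15 H2A.Z regions were all unchanged, and H2A.Zac had 3 lost, 7 gained and 12 unchanged, among the lost one of 2210 bp at −349 kb (16.1), just past the bound. Between the promoters, H2A.Zac had 19 lost, 2 gained and 17 unchanged regions, while 15 of 20 H2A.Z regions were unchanged. The bounds of these stretches were set after the values were seen.

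**Figure D3:**
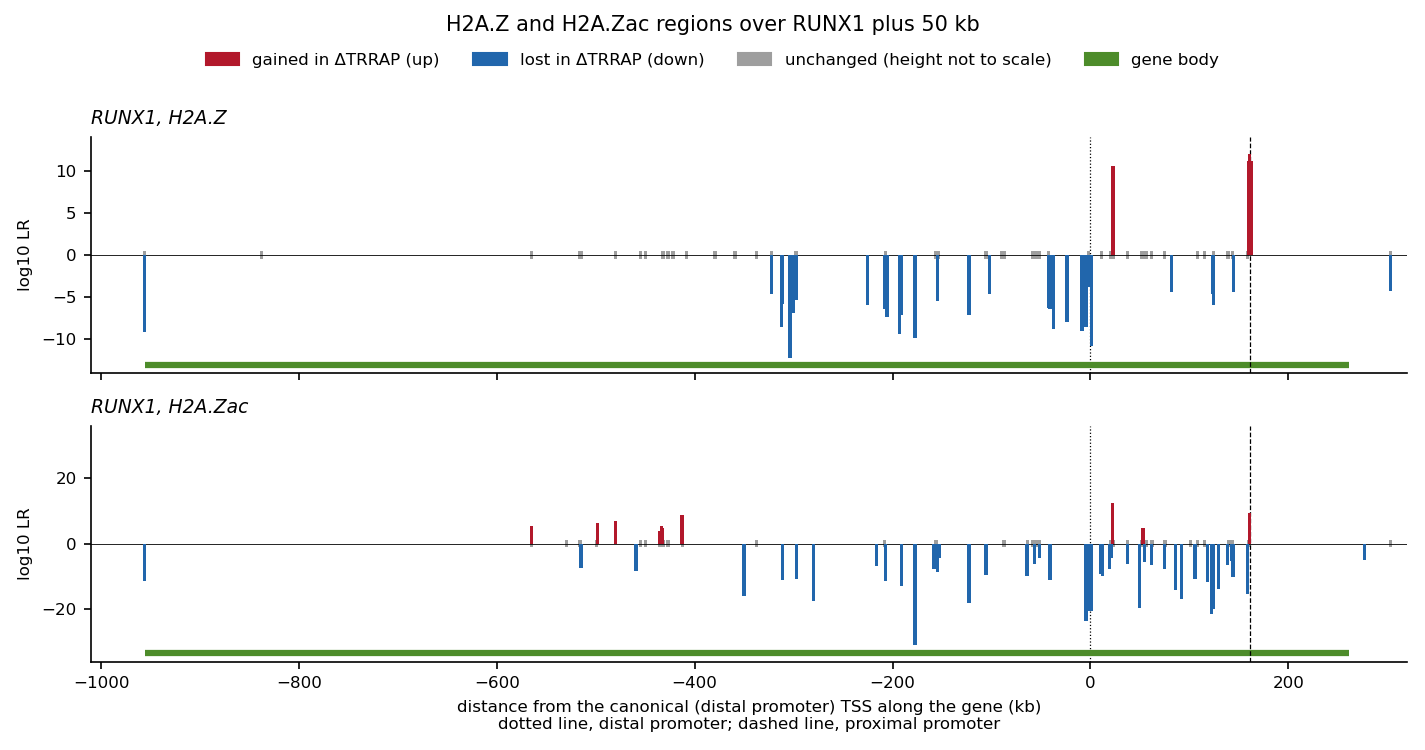
Regions over RUNX1 plus 50 kb, with H2A.Z above and H2A.Zac below. The horizontal axis is the distance from the distal TSS in kb, and bars give the authors' log10 likelihood ratio, upward in red for gained and downward in blue for lost regions; gray marks are unchanged, the green line is the gene body, and regions are drawn at a minimum width. H2A.Z losses stand mostly between −330 kb and the distal promoter, H2A.Zac losses also between the promoters (19 regions) and at −349 kb, and the highest gains of H2A.Z stand at the proximal promoter, 161 kb downstream.

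At the canonical TSSs, taken with 1 kb to each side, an H2A.Zac region was listed for 8 of the 10 genes, against 63.9% of all protein-coding genes, and an H2A.Z region for 4, against 62.2%. A gained H2A.Zac region was listed at TAL1, LMO2, LYL1 and ZFPM1, in each case together with unchanged regions, and a lost one at RUNX1. At TAL1, LMO2 and LYL1 a gained and an unchanged region overlapped. The only regions listed at KLF1, GFI1B and NFE2 were unchanged, and none was listed at GATA1 and GATA2. These calls depend on the window and the ratio. With 500 bp to each side, 3 of the 10 genes had a changed H2A.Zac region in place of 5, since the gains at TAL1 and LMO2 fell outside, and with 2 kb there were 6, with regions of both directions at GFI1B and LYL1. With a ratio of at least 10, LYL1 and RUNX1 remained. With any annotated TSS of a protein-coding transcript there were 8, with gains at other TSSs of GATA2 (11.3 kb), GFI1B (−33.1 and 7.99 kb) and NFE2 (5.25 and 5.26 kb). Over all protein-coding genes a gained H2A.Zac region was listed at 36.6% of the TSSs and a lost one at 16.6%. For H2A.Z, RUNX1 had a lost region and LMO2 a gained one, KLF1 and ZFPM1 had unchanged regions, and the other 6 had none, with gains at 13.9% and losses at 6.53% of all TSSs. The numbers of factors with a gain or a loss are close to these backgrounds. TAL1, LYL1, GFI1B and NFE2 had H2A.Zac but no H2A.Z region in the window, 4 of 10 against 4.52% of all protein-coding genes.

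Many H2A.Zac regions of these loci had no listed H2A.Z under them. Of the 282 H2A.Zac regions 132, or 46.8% (41.1 to 52.6%), were covered by H2A.Z regions of any class over 25% or more of their bases, against 60.5% of all H2A.Zac regions, and without RUNX1 the share was 37.8% (31.1 to 44.9%). Of the 62 gained H2A.Zac regions 5 lay on a gained H2A.Z region, 0 on a lost one and 18 on an unchanged one. The share on a gained H2A.Z region was 8.06%, against 18.7% of all gained H2A.Zac regions. Their shares on an unchanged and on any H2A.Z region were lower too, 29% against 45.9% and 35.5% against 57.1%. Of the 81 lost ones 21 lay on a lost H2A.Z region, 0 on a gained one and 25 on an unchanged one, and the share on a lost H2A.Z region was 25.9%, against 28.6% of all. Of the 157 H2A.Z regions 78.3% (71.3 to 84.1%) lay on H2A.Zac, against 82.8% of all. The 2 marks come from the same clones.

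The 15 genes listed as partners and cofactors of the factors all had regions of both marks at the TSS, where 62.2% of all genes had an H2A.Z region and 63.9% an H2A.Zac region. The list was kept as made, although GATAD1, a gene for a protein with a GATA-type zinc finger, is not an established partner of these factors. A gained but no lost H2A.Zac region was listed at 11 of them, in all 11 together with an unchanged one, as at 91% of all genes with gains alone. Of the 12819 protein-coding genes with an H2A.Zac region at the TSS, 6456 had gains alone. Among the 11 were LDB1, the dimerizing partner of LMO2, the E proteins TCF3 and TCF12 that pair with TAL1, the RUNX1 partner CBFB, the NFE2 partner MAFK, and KDM1A and RCOR1, which work with GFI1B. A lost H2A.Zac region was listed at GATAD1, both directions were listed at MAFG and MBD2, and SSBP3 was unchanged. H2A.Z was unchanged at 11 of the 15, gained at CBFA2T3, RCOR1 and TCF3, and both lost and gained at GATAD1. Of 15 other hematopoietic factors, H2A.Zac was gained but not lost at 8, including MYB, SPI1 and both STAT5 genes, and lost but not gained at GFI1, MEIS1 and CEBPA. Both directions were listed at IKZF1. Unchanged regions were listed too at 6 of the 8, all but the STAT5 genes, and at MEIS1. MEIS1 had a gained H2A.Z region beside the lost H2A.Zac region. H2A.Z was gained at 6 of the 15 and lost at CEBPA. No H2A.Zac region was listed at BCL11A, FLI1 and ERG. Over all genes, H2A.Zac regions were gained alone at 32.2% and lost alone at 12.2% of the TSSs, and H2A.Z regions were gained alone at 13.5% and lost alone at 6.19%.

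Of 25 erythroid target genes, a gained but no lost H2A.Zac region was listed at 11, at 10 of them with an unchanged one. A lost but no gained region was listed at 3, at all 3 with an unchanged one. Both directions were listed at TFRC, the transferrin receptor, and SLC25A37, the mitochondrial iron importer. The 11 included the receptor EPOR, the membrane proteins SLC4A1, KEL and RHAG, and the heme enzymes UROD, PPOX, CPOX and FECH. The losses were at HBA1 and HBA2, which encode α-globin, and at AHSP, the chaperone of α-globin. HBA1 and HBA2 are near-identical copies between which short reads may not be told apart, so they are uncertain as separate results. H2A.Z had 0 gains among the 25, against gains alone at 13.5% of all genes. It was lost at 6, HBA1, HBA2, AHSP, SLC25A37, FECH and FAM210B, or 24% with both α-globin copies counted, against losses alone at 6.19% of all genes. At all 6 an unchanged H2A.Z region was listed too, as at 80.7% of all genes with losses alone. At FECH and FAM210B, H2A.Z was lost while H2A.Zac was gained within the same TSS window. Among the lymphoid markers, H2A.Zac was lost at CD2, CD79A, CD79B, CD3D and CD3G, with unchanged regions at the last 3 of these, and gained at 0 of 9. The TSSs of CD3D and CD3G are 1639 bp apart and share 1 lost region, from 118343295 to 118343748 on chromosome 11 (4.86), so that the 5 genes stand for 4 separate places. The 9 erythroid markers are all among the 25 targets and do not include HBA1, HBA2 and AHSP, where H2A.Zac was lost, so they are not a separate comparison. Among them it was gained alone at 3, lost alone at 0 and changed in both directions at 1. The shares of all genes are those given above, 32.2% gained alone and 12.2% lost alone.

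**Figure D4:**
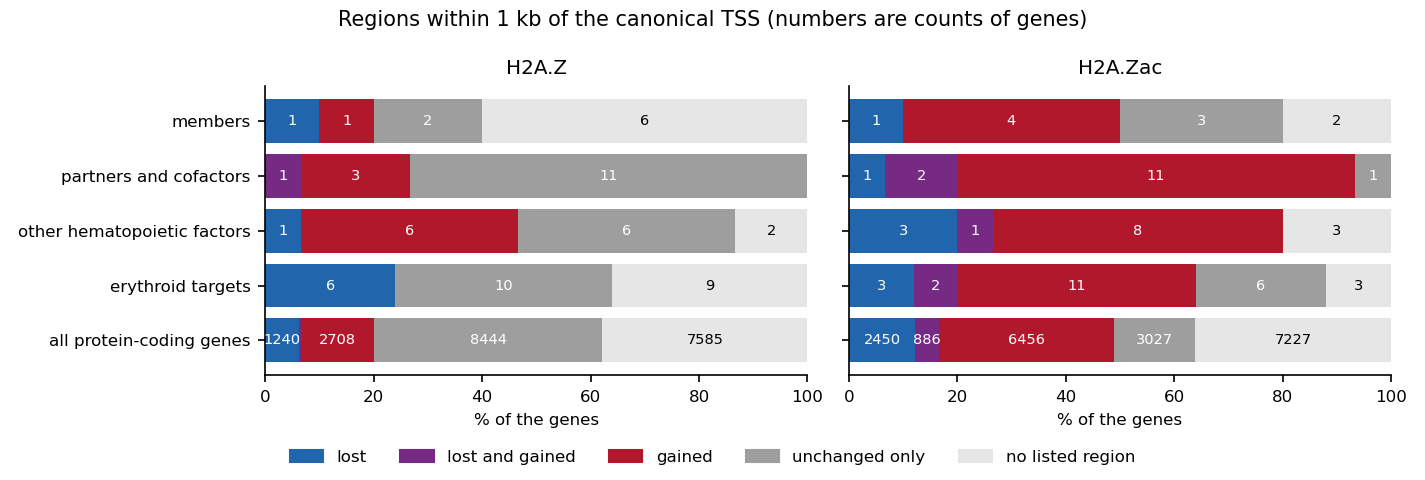
Share of the genes of each list with lost, lost and gained, gained, only unchanged or no listed H2A.Z (left) or H2A.Zac (right) regions within 1 kb of the canonical TSS; the numbers are counts of genes. The genes listed as partners and cofactors have the widest red bar for H2A.Zac (11 of 15), and the erythroid targets have 6 lost and 0 gained for H2A.Z.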

How the data were processed

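The authors aligned the ChIP-seq reads to hg38 with Bowtie2 2.4.5, called peaks with MACS2 2.2.7.1, merged the 2 replicates of each line and compared the lines with bdgdiff, which scales them to the same effective depth. A region was kept where peaks reproducible between replicates (IDR cutoff 0.05) covered 25% or more of it. The score in the deposited lists is the log10 likelihood ratio of that comparison. These steps were not repeated. Input libraries, signal tracks and RNA-seq were not analysed here.

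Regions were assigned to a gene when they overlapped its GENCODE 44 gene body plus 50 kb; the paper used an earlier release. Canonical TSSs of protein-coding genes were used with 1 kb to each side, and overlap between marks meant 25% of a region's length. Motifs were searched in the central 300 bp. No test between the lines was possible. The overlap calculation was checked against bedtools 2.31.1 and tested on simulated data. Python 3.11.15, pandas 2.3.3, scipy 1.17.1 and samtools 1.23.1 were used. Genes named are the 10 members, genes with a TSS within 1 kb of their regions, and genes in the pathway and marker lists, some of which are not reported here. Single regions were described where they cover a TSS, have the highest ratio of a locus or hold the composite motif, and further regions were chosen after their values were seen. The members and lists were chosen with earlier results of these data known. Alternatives were other flanks, ratio cutoffs, widths, overlaps and TSS windows, merged regions, base pairs and leaving out each gene.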

Additional observations from a re-analysis of the deposited data

How the results depend on the processing

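Of 120 alternative values, 96 stayed within the 95% confidence interval of the reported share, or within 1.5 times the reported count, and 24 moved out of it. These intervals differ in width, so a share of few regions can shift further than one of many and still be among the 96. With the gene bodies alone, the gained share of changed regions was 13.9% for H2A.Z and 33.3% for H2A.Zac, since RUNX1 then holds most regions. With a ratio of at least 5, 26.8% of the H2A.Z and 40.1% of the H2A.Zac regions were changed, and 1 gene had a changed H2A.Z region at its TSS. With a ratio of at least 10, these were 5.73% and 16%, with gained shares of 55.6% (5 of 9) and 24.4%, and 1 and 2 genes had a changed H2A.Z and H2A.Zac region at the TSS. Merging regions within 1 kb gave 56.7% changed for H2A.Zac, and an overlap of 50% gave 37.2% of the H2A.Zac regions on H2A.Z. A TSS window of 500 bp left 3 genes with a changed H2A.Zac region, and any annotated TSS gave 8. Leaving out each gene in turn, the changed share ranged from 27.6 to 36.2% for H2A.Z and from 47.9 to 51.7% for H2A.Zac, the gained share from 16.3 to 42.9% and from 39.4 to 57.8%, and the share of H2A.Zac on H2A.Z from 37.8 to 50%. Leaving out RUNX1 gave 27.6, 47.9, 42.9, 57.8 and 37.8%, in the same order. Using the canonical transcript plus 50 kb, chosen after seeing the data, gave gained shares of 34.2% and 47%. The limits of 5 and 20 kb from the TSS, also chosen then, gave H2A.Zac gained shares of 70% and 69% near the TSS and of 39% and 32.7% farther out. Leaving out changed regions that share a base with an unchanged one, chosen then too, gave an H2A.Zac gained share of 28%, against 41.8% over the genome, and of 57.1% near and 22.1% far from the TSS. No paired analysis was possible because the lists merge the replicates. Depth is unknown, so the precision of single regions cannot be given.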
